A study of Mus musculus with 2 samples.

Results

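Wdr72, Fam20a, Fam20c, Fam83h, Acp4 and Relt are genes in which mutations cause defective enamel in people, and they were followed here by symbol through single cells of the growing mouse incisor. They make up 6 of the 19626 genes in the count table, and 1 of them, Acp4, is listed there under its older symbol Acpt. The cells, epithelial and mesenchymal, came from the cervical loop region of 1 Memo1-mutant mouse (genotype Memo1;K14CRE) and from 1 control mouse, aged 20 days, with 1 droplet library per animal that counts the 3′ ends of transcripts by unique molecular identifiers (UMIs). In Memo1;K14CRE mice the Cre recombinase is driven by the keratin 14 promoter, which is active in epithelium, so mesenchyme, vessels and blood cells of the same library lie outside its usual reach. The labels give no strain, no sex, and no alleles for the control mouse beyond its name. The title of the series asks whether MEMO1 is needed for ameloblasts to mature.

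Enamel is laid down by ameloblasts, which first secrete a protein matrix and later, as maturation ameloblasts, remove that matrix and drive mineral into its place. Acidic proteins of the matrix are phosphorylated in the secretory pathway, and the breakdown products are later taken back into the cell by endocytosis. The 6 genes act at different points of this course. FAM20C is the kinase of the secretory pathway that phosphorylates enamel, dentin and bone proteins, and FAM20A is a pseudokinase that binds FAM20C and raises its activity. ACP4 is an acid phosphatase. RELT is a receptor of the tumour necrosis factor receptor family. FAM83H binds casein kinase 1 and keratins. WDR72 is a WD-repeat protein tied to vesicle trafficking and endocytosis in maturation ameloblasts, and its loss leaves enamel of full thickness that is poorly mineralized.

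By GENCODE M21 on GRCm38, all 6 are protein-coding. Wdr72 lies at chr9:74110356-74283308 on the plus strand, Fam20a at chr11:109669749-109722279 on the minus strand and Fam20c at chr5:138754514-138810077 on the plus strand. Acp4 (chr7:44252148-44257378) and Relt (chr7:100845847-100863446) lie on the minus strand of the same chromosome, and Fam83h at chr15:76001093-76014336 on the minus strand. Fam83h is overlapped on the other strand by K230010J24Rik, which had 57 counts in mutant and 81 counts in control lineage cells, and Acp4 is overlapped on the other strand by 2410002F23Rik and Gm28496. Whether the counting used strand is not given in the sources used here, so the low Fam83h counts in particular are uncertain.

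Upstream sequence from RefSeq (GRCm38.p6) is shown for Fam20a, Acp4 and Relt, whose 3 highest lineage levels were in clusters 3, 6 and 7, described below. Each stretch runs 5′ to 3′ on the minus strand and ends just before the start of the GENCODE gene. Capitals mark a GC box (GGGCGG or its complement CCGCCC) and a CCAAT box (CCAAT or ATTGG), and the spans are chr11:109722280-109722488 for Fam20a, chr7:44257379-44257454 for Acp4 and chr7:100863447-100863663 for Relt.
Fam20a: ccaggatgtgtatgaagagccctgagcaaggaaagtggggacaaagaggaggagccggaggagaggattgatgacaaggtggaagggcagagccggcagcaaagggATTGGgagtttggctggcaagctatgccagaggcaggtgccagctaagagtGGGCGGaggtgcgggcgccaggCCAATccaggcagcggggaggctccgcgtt
Acp4: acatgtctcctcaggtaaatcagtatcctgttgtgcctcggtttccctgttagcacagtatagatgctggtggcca
Relt: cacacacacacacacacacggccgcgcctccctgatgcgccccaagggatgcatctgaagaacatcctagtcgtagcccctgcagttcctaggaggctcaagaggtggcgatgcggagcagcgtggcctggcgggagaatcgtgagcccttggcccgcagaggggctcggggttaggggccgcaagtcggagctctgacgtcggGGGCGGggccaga
The Fam20a stretch of 209 bases holds both boxes, the Relt stretch of 217 bases a GC box, and the Acp4 stretch of 76 bases neither. Over the 250 bases before the RefSeq start of 27025 genes, 32.9% hold a GC box and 34.5% a CCAAT box on either strand, so both are common. In that 250-base window Acp4 also has the PITX motif TAATCC (or GGATTA), present in 6.38% of windows. The match lies outside the 76 printed bases, in the part of the window within the GENCODE gene. The RUNX motif TGTGGT (or ACCACA) and the DLX or MSX motif TAATTA, held by 14.2% and 4.90% of windows, are not in the windows of Fam20a, Fam20c, Acp4 or Relt. The letters TATAAA (or TTTATA) are not in them either and occur in 13.0% of all windows. For Fam20c the window lies within the GENCODE gene, so no stretch is printed.

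The mutant library held 13820 cells and the control library 9708 cells, of which the authors had called 2303 mutant and 2981 control cells ameloblast lineage. These lineage cells held 24230793 UMIs in the mutant and 32299685 in the control, with medians of 2174 and 5364 UMIs per cell. Memo1 itself was at 17.7 CPM in mutant and 20.3 CPM in control lineage cells (CPM, a gene's counts scaled to 1e6 summed UMIs of the same cells). The labels do not say which part of the gene is deleted, so this level does not check the genotype. In both libraries 139 cell barcodes occur. With 1 library per group there is no replicate check and no test between mice, and mouse, library and genotype cannot be told apart. All intervals are exact 95% counting intervals that leave out variation between mice. Values below describe these libraries, and a gene is called past 2-fold when its ratio of mutant to control is at least 2 or at most 0.5 with at least 20 counts over both.

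The 9 lineage clusters carry the authors' numbers and no names. Cluster 3 was secretory ameloblast-like (286 mutant and 223 control cells), cluster 7 maturation ameloblast-like (78 and 187 cells), cluster 1 outer enamel epithelium-like (75 and 495 cells), and cluster 5 stratum intermedium or papillary layer-like (174 and 211 cells). The name of cluster 7 rests on markers averaged over both libraries. In its 77 mutant cells without a Wdr72 UMI, the maturation markers Odam and Klk4 were at 224 and 278 CPM. Control cells with a Wdr72 UMI had 29284 and 2871 CPM, and those without one 4068 and 2291 CPM. Whether mutant and control cells of cluster 7 are at the same stage was not tested. Cluster 6 is led by Dspp and Cyp26a1 (163 and 143 cells), cluster 2 by Pi15 and Slc12a2 (190 and 340 cells), and cluster 8, with 91 mutant cells and 0 control cells, by Dcpp2 and Ces1d. Cluster 4 carries preameloblast markers together with haemoglobin (223 and 227 cells), and cluster 0 is shallow, with medians of 898 and 1092 UMIs in 1023 and 1155 cells. Fam20a and Acp4 are among the 10 leading genes of cluster 3, so their high level there is part of what defines that cluster.

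Over the whole lineage, Wdr72 was far scarcer in the mutant library, while the other 5 members stayed within 2-fold. Wdr72 had 13 counts (0.537 CPM, 0.286 to 0.917) in mutant cells and 278 counts (8.61 CPM, 7.62 to 9.68) in control cells, a ratio of 0.0623 (0.0328 to 0.108). It was the only member called, as were 4.08% of 14019 genes in the lower direction, and 0 members were called higher, against 4.6% of genes. Fewer cells of a stage and fewer transcripts per cell cannot be told apart in such a sum.

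The members differed in level by orders of magnitude, with counts of 3′ ends that do not depend on transcript length. Acp4 was the most abundant, at 367 CPM (360 to 375) in mutant and 424 CPM (417 to 432) in control lineage cells, a ratio of 0.865 (0.842 to 0.889). Fam20c followed at 126.5 CPM and 87.2 CPM, a ratio of 1.45 (1.38 to 1.53). Fam20a was at 109.7 CPM in mutant and 64.9 CPM in control cells, a ratio of 1.69 (1.60 to 1.79). Transcripts of the kinase and of its partner were thus both more abundant in the mutant lineage sum, below the 2-fold line. Such a sum depends on the mix of clusters. Cluster 3 held 9155912 of 24230793 mutant and 7682145 of 32299685 control lineage UMIs, and cluster 6 held 4838622 and 4067996. Within clusters 3, 6 and 7 the ratios were 1.09, 0.809 and 1.36 for Fam20c and 1.24, 0.729 and 1.70 for Fam20a. The part of the mix in the lineage ratios was not tested. Relt was at 37.7 CPM in mutant and 31.3 CPM in control cells (ratio 1.21, 1.10 to 1.32), and Fam83h at 8.38 CPM and 6.25 CPM (ratio 1.34, 1.10 to 1.64). The Fam83h ratio was 2.60 when cells were thinned to 1000 UMIs, which leaves few of its counts. The Acp4 ratio turned to 1.01 without the 5% of cells with the most UMIs, so its direction in the lineage sum was not stable.

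**Figure D1:**
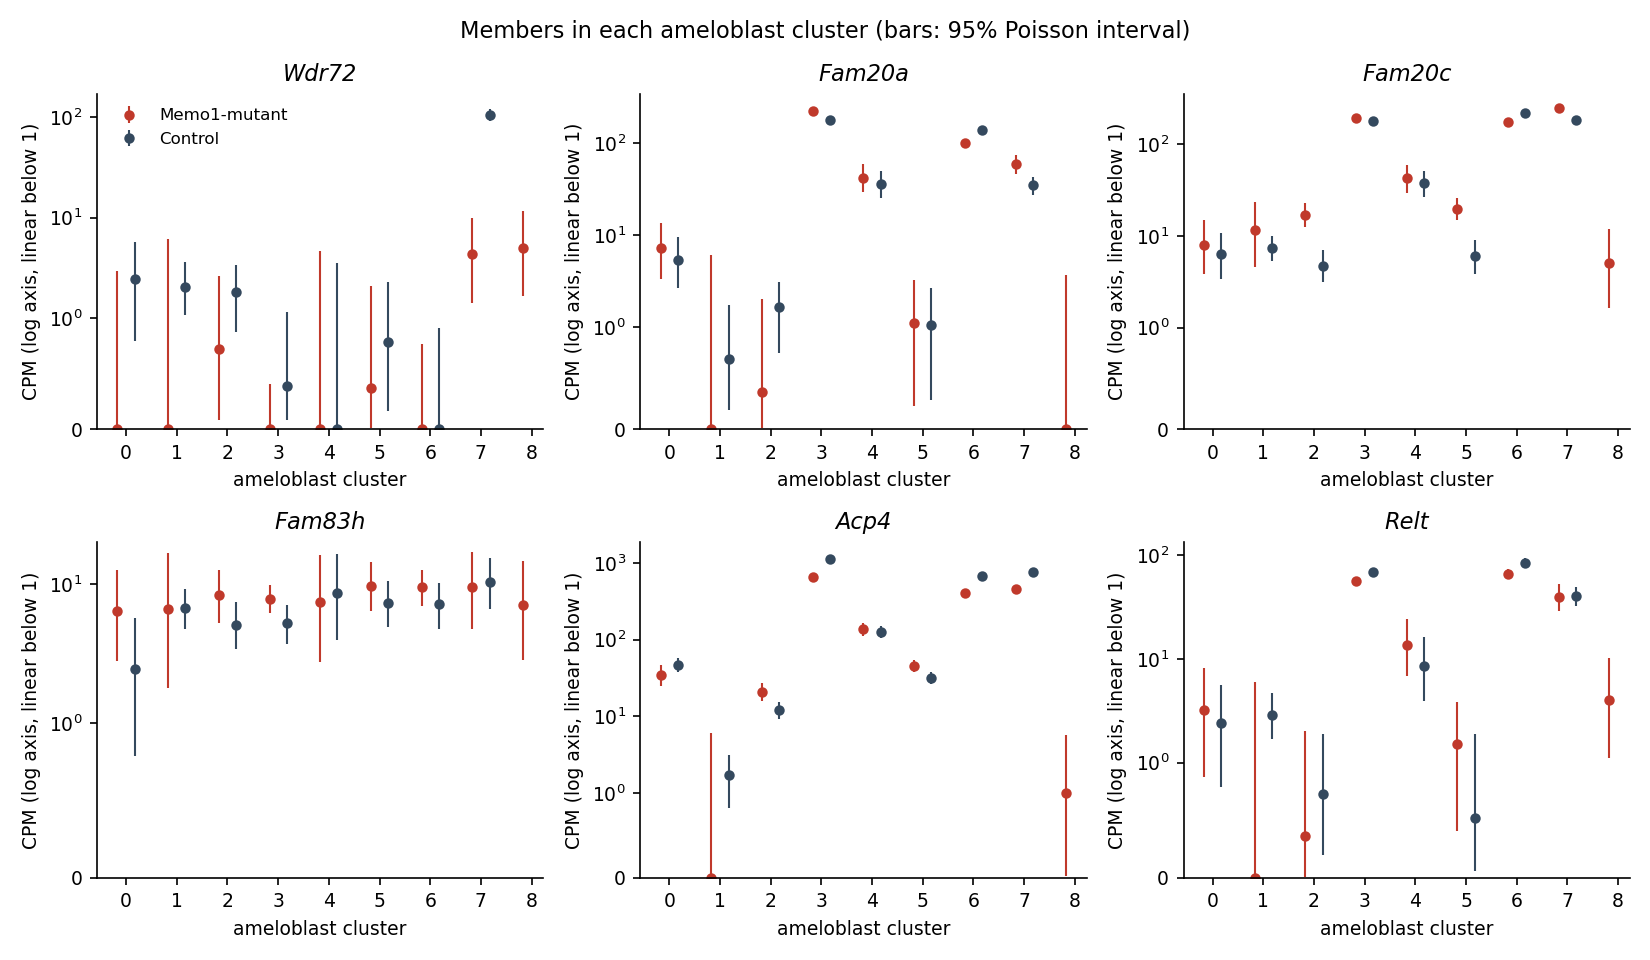
CPM of each member in each ameloblast cluster, in the Memo1-mutant library (red) and the control library (dark blue), on a log axis that is linear below 1; bars are exact 95% Poisson intervals. Acp4, Fam20a, Fam20c and Relt are high in clusters 3, 6 and 7 in both libraries, Fam83h is low throughout, and Wdr72 stands out in control cluster 7, at 106 CPM.

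The trafficking gene Wdr72 lay mostly in cluster 7 in the control library. Cluster 7 held 245 of its 278 control lineage counts, which is 88.1%, and its level there was 4.30 CPM (1.40 to 10.0) in mutant and 106 CPM (93.0 to 120) in control cells. The ratio was 0.0407 (0.0131 to 0.0962), in a cluster where 12.3% of 8024 genes were called lower and 5.36% higher. No other member was called in this cluster.

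Wdr72 was unevenly spread over the control cells of cluster 7. A Wdr72 UMI was found in 52 of 187 control cells (27.8%, 21.5 to 34.8, Clopper-Pearson), with a median of 4 and up to 14 UMIs in such a cell, and the 13 cells with the most held at least 0.5 of the counts. Among mutant cells 1 of 78 had any (1.28%, 0.0325 to 6.94), and that cell carried all 5 counts. Thinned to 1000 UMIs, the shares were 1.72% of 58 mutant cells and 9.59% of 146 control cells, and the ratio was 0.114. In endothelium-like all-cell cluster 8, 0 of 592 mutant and 0 of 259 control cells had a Wdr72 UMI (upper bounds 0.621% and 1.41%), at medians of 10870 and 12518 UMIs. In endothelium-like cluster 15 it was 3 of 451 mutant cells (0.665%) and 3 of 168 control cells (1.79%). All cells outside the lineage held 16 mutant and 17 control Wdr72 counts, at 0.166 and 0.360 CPM, a ratio of 0.460 (0.217 to 0.968) where 3.42% of 16431 genes were called higher and 2.9% lower. Median depth in cluster 7 was 8059 UMIs in mutant and 5513 UMIs in control cells, so the mutant cells were not the shallower ones. Without the 1 mutant cell, which also had the most Odam, 0 mutant counts remained, and against a floor of 3 counts the ratio was at most 0.0254.

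**Figure D2:**
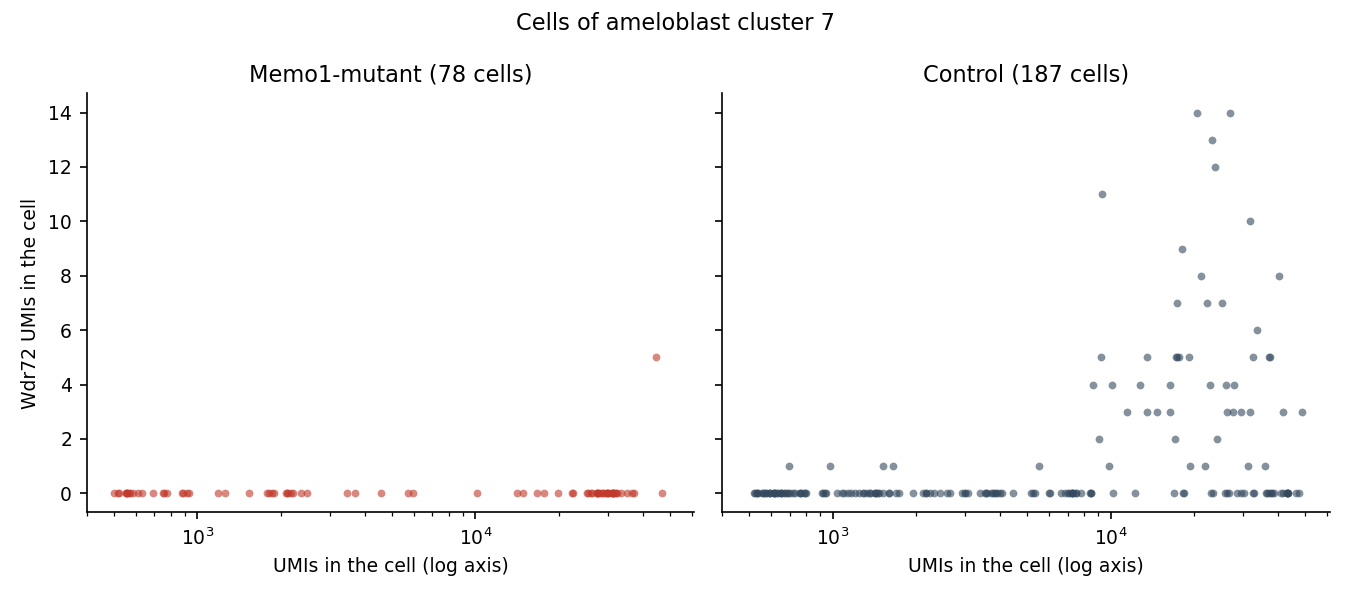
Wdr72 UMIs (y axis) against all UMIs (x axis, log) for each cell of ameloblast cluster 7, Memo1-mutant cells on the left and control cells on the right. A single mutant cell has 5 Wdr72 UMIs and the other 77 have 0, while 52 control cells have 1 to 14.

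Elsewhere in the lineage Wdr72 was near the limit of detection. Secretory ameloblast-like cluster 3 gave 0 counts in mutant and 3 counts in control cells, and cluster 6 gave 0 in both, so at these depths no difference could be seen. Outer enamel epithelium-like cluster 1 had 0 counts in 75 mutant cells and 12 counts in 495 control cells (2.06 CPM, 1.06 to 3.59), and cluster 2 had 2 and 10 counts. In cluster 8, which has mutant cells alone, Wdr72 gave 5 counts in 5 of 91 cells (5.04 CPM, 1.64 to 11.8). These low levels rest on 12 or fewer counts each, and their intervals overlap that of control cells in endothelium-like cluster 15, at 1.27 CPM (0.262 to 3.71). Mutant cells of cluster 15 were at 0.496 CPM (0.102 to 1.45), and those of endothelium-like all-cell cluster 8 had 0 counts (upper bound 0.446 CPM). Within the mutant library, the interval of lineage cluster 8 lies above both. It overlaps that of mutant cells in pericyte or smooth muscle-like all-cell cluster 10, at 0.905 CPM (0.247 to 2.32).

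To see which other members went with Wdr72 in single cells, cells of cluster 7 with at least 5000 UMIs were split by whether they had a Wdr72 UMI, a split chosen after the data were seen and given as description. It left 40 mutant cells without a Wdr72 UMI, with a median of 28511 UMIs. The control had 48 cells with one (median 21444 UMIs) and 49 cells without (median 22904 UMIs), so the 2 sets of control cells were alike in depth. Relt was at 42.2 CPM (30.8 to 56.5) in the mutant cells, at 5.59 CPM (2.05 to 12.2) in control cells with Wdr72 and at 77.0 CPM (61.5 to 95.3) in control cells without. The kinase gene Fam20c was at 261 CPM (231 to 293) in the mutant cells, 89.4 CPM (72.5 to 109) in control cells with Wdr72 and 281 CPM (251 to 314) in those without. The intervals of the mutant cells and of control cells without Wdr72 overlap for Fam20c and do not for Relt. Both were therefore lowest in the control cells that carried Wdr72.

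Acp4 and Fam20a differed less between the control cells with and without Wdr72. Acp4 was at 477 CPM (437 to 521) in the mutant cells, below both the 700 CPM (651 to 752) of control cells with Wdr72 and the 848 CPM (795 to 904) of control cells without. Fam20a was at 62.8 CPM (48.7 to 79.8) in the mutant cells, 39.1 CPM (28.2 to 52.9) in control cells with Wdr72 and 31.7 CPM (22.1 to 44.1) in those without. The intervals of the control cells do not overlap for Acp4 and do overlap for Fam20a, and Fam83h, at 9.38, 13.98 and 7.25 CPM in the same order, overlapped in all 3 sets. The stage markers differed between these cells as well. Odam, of the basal lamina on maturing enamel, was at 196 CPM in the mutant cells, 29359 CPM in control cells with Wdr72 and 2911 CPM in those without. Enam, a secretory matrix gene, was at 19333, 832 and 12714 CPM in the same order, and the part of this mix of stages in the member values was not tested. The single mutant cell with Wdr72, at 44603 UMIs, had Odam at 4798 CPM, 16 Acp4 counts, 1 Fam20c count and 0 counts of Relt, Fam20a and Fam83h.

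**Figure D3:**
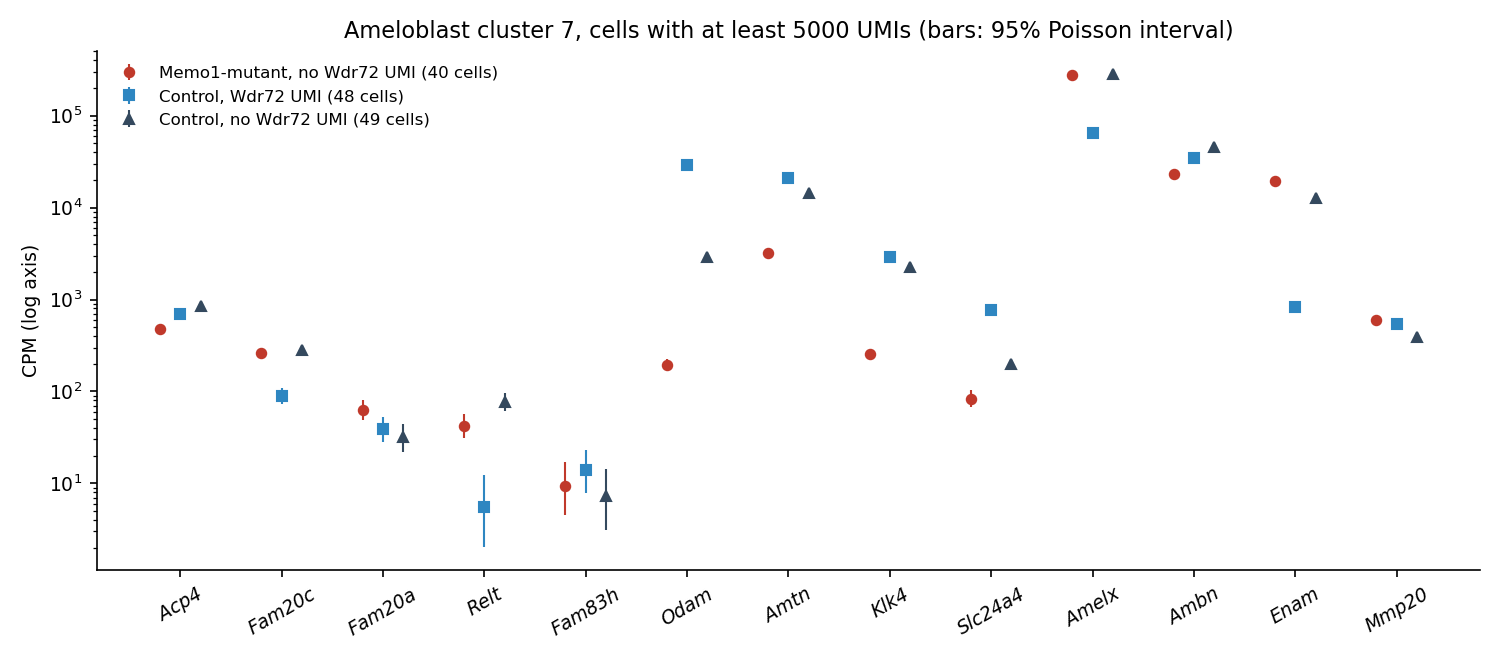
CPM (log axis) of the other 5 members and of stage markers in cells of ameloblast cluster 7 with at least 5000 UMIs: 40 Memo1-mutant cells with no Wdr72 UMI (red), 48 control cells with one (light blue) and 49 control cells without (dark blue triangles); bars are exact 95% Poisson intervals. Relt and Fam20c are lower in control cells with Wdr72 than in either of the other sets, while Acp4 is lowest in the mutant cells.

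The FAM20 pair was expressed in the same ameloblast clusters but differed outside them. Fam20a was highest in cluster 3 (224 CPM in mutant, 180.4 CPM in control), next in cluster 6 (101 and 138 CPM), then in cluster 7 (59.3 and 35.0 CPM), and was below 2 CPM in clusters 1, 2 and 5. Fam20c had no such order, with 193 and 177 CPM in cluster 3, 177 and 219 CPM in cluster 6, and 247 and 182 CPM in cluster 7. Its levels in these 3 clusters overlap over the libraries. Nearly every cell of secretory ameloblast-like cluster 3 had both, Fam20a in 98.3% of mutant and 98.7% of control cells and Fam20c in 98.3% and 97.8%.

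Between libraries the pair stayed within 2-fold in these clusters. For Fam20a the mutant to control ratio stood at 1.24 (1.16 to 1.33) in cluster 3, 0.729 (0.644 to 0.824) in cluster 6 and 1.70 (1.21 to 2.37) in cluster 7. Without the 5% of cells with the most UMIs it was 2.21 in cluster 7, and thinned to 1000 UMIs it was 1.10 in cluster 6. For Fam20c it was 1.09 (1.01 to 1.17), 0.809 (0.735 to 0.889) and 1.36 (1.16 to 1.58). No member was called in cluster 3, where 6.5% of 10409 genes were called higher and 2.08% lower, or in cluster 6, where 9.37% of 10123 genes were called higher and 1.14% lower. The median log2 ratio of all genes was itself shifted, to 0.16 in cluster 2, 0.14 in cluster 3, 0.24 in cluster 5 and 0.22 in cluster 6. Against that shift the Fam20c log2 ratio of 0.12 in cluster 3 has the other sign, and with TMM factors its ratio was 0.990.

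Fam20c was called higher in the mutant in clusters 2 and 5, which have far less of it than clusters 3, 6 and 7. In cluster 2 it had 47 counts in mutant cells and 26 in control cells, at 17.0 CPM (12.5 to 22.6) and 4.75 CPM (3.10 to 6.96), a ratio of 3.59 (2.18 to 6.04) where 6.5% of 11126 genes were called higher and 2.33% lower. In stratum intermedium or papillary layer-like cluster 5 it had 53 and 23 counts, at 19.9 CPM (14.9 to 26.0) and 6.02 CPM (3.82 to 9.03), a ratio of 3.30 (1.99 to 5.64) where 7.43% of 10517 genes were called higher and 1.01% lower. The share of cells with a UMI moved the same way, at 19.5% of mutant and 6.76% of control cells in cluster 2 and 23.0% and 9.48% in cluster 5. Median depth was slightly lower in mutant than in control cells, at 14030 and 15855 UMIs in cluster 2 and 13732 and 17673 UMIs in cluster 5. Thinned to 1000 UMIs, the shares were 1.58% of mutant and 0% of control cells in cluster 2 (upper bounds 4.54% and 1.08%) and 2.30% and 1.90% in cluster 5. The thinned cluster 5 ratio was 1.21 from 4 counts in each library and the thinned cluster 2 ratio at least 1.79, and with 8 counts or fewer over both libraries no call could be made at that depth. Erythroid-like all-cell cluster 18 had Fam20c in 0.581% of mutant and 0.386% of control cells, at medians of 11225 and 10660 UMIs, which lies below the shares in clusters 2 and 5. Endothelium-like cluster 8 had it in 5.41% of mutant and 7.72% of control cells, which is near the control shares of clusters 2 and 5. Amelx is a secretory ameloblast transcript, and per 1000 Amelx counts there were 20.8 Fam20c counts in mutant and 4.34 in control cells of cluster 2, against 0.479 and 0.429 in cluster 3. In cluster 5 there were 19.8 and 7.01, and in endothelium-like all-cell cluster 8 there were 5.02 and 6.55. The part of free RNA from other cells in these Fam20c levels was not tested.

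**Figure D4:**
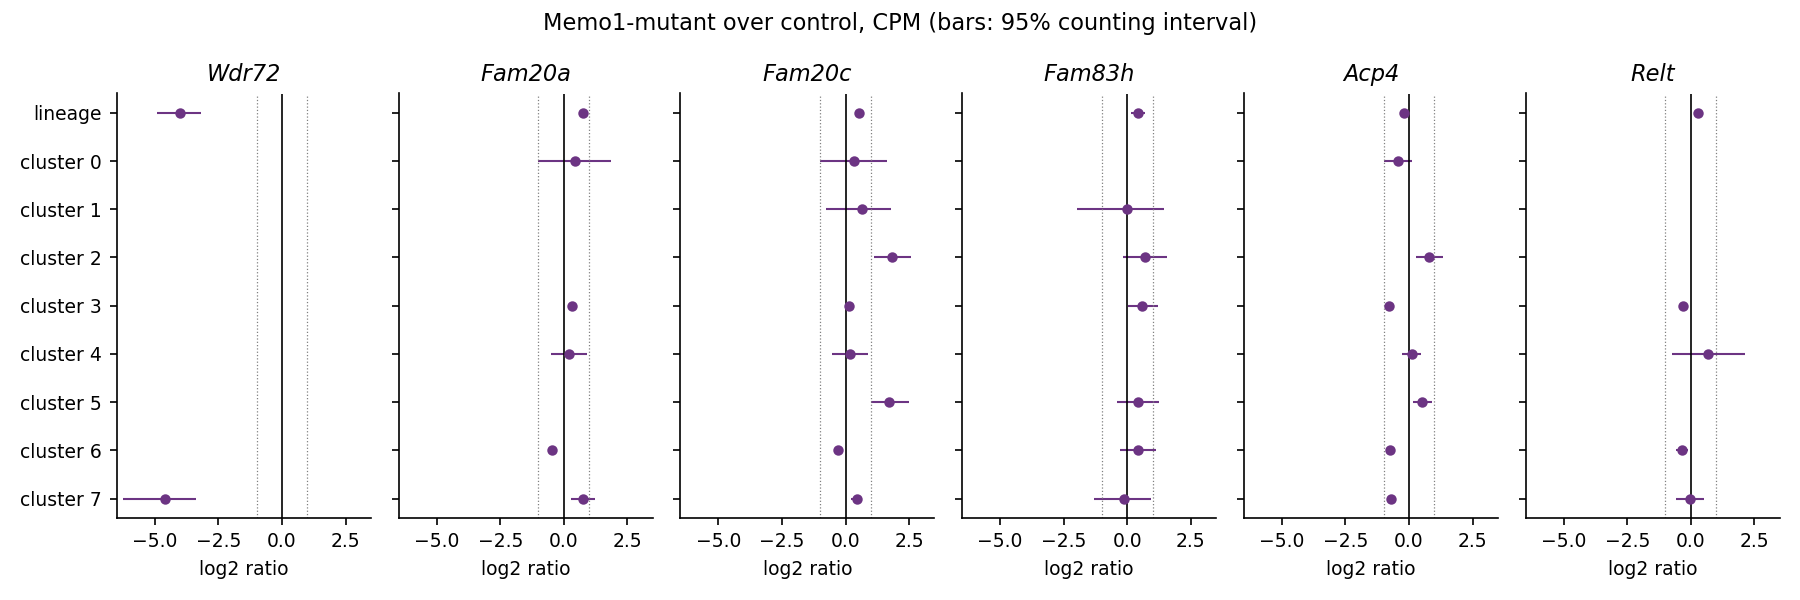
Log2 ratio of Memo1-mutant to control CPM for each member, in the lineage and in each ameloblast cluster with at least 20 counts; bars are 95% counting intervals and dotted lines mark 2-fold. Wdr72 lies at -4.00 in the lineage and -4.62 in cluster 7, Fam20c at 1.84 in cluster 2 and 1.72 in cluster 5, and Acp4 at about the same distance below 0 in clusters 3, 6 and 7.

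The phosphatase gene Acp4 was lower in the mutant in clusters 3, 6 and 7, the lineage clusters that express it most, without reaching 2-fold there. It was at 662 CPM (645 to 679) in mutant and 1141 CPM (1117 to 1165) in control cells of cluster 3, a ratio of 0.580 (0.561 to 0.599). In cluster 6 it was at 406 CPM and 681 CPM, a ratio of 0.596 (0.563 to 0.632), and in cluster 7 at 464 CPM and 754 CPM, a ratio of 0.615 (0.558 to 0.678). All 286 mutant and all 223 control cells of cluster 3 had an Acp4 UMI, and thinned to 1000 UMIs the shares were 45.8% (39.9 to 51.8) and 64.6% (57.9 to 70.8). Over the alternative scalings and cell selections the ratio ran from 0.526 to 0.589 in cluster 3, from 0.505 to 0.606 in cluster 6 and from 0.612 to 0.760 in cluster 7. In all-cell cluster 25, led by Dspp and Cyp26a1, Acp4 did pass 2-fold. It was at 225 CPM (208 to 243) in 103 mutant cells and 461 CPM (435 to 489) in 86 control cells. The share of all genes called was not counted for that cluster.

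In clusters 2 and 5, which have far less Acp4, its ratio stood above 1. It was at 21.0 CPM (15.96 to 27.2) in mutant and 12.1 CPM (9.32 to 15.3) in control cells of cluster 2, and at 45.7 CPM (38.0 to 54.6) and 31.9 CPM (26.5 to 38.1) in cluster 5. These are ratios of 1.74 (1.20 to 2.52) and 1.43 (1.11 to 1.86). Over the alternatives the ratio ran from 1.51 to 14.3 in cluster 2 and from 1.05 to 2.01 in cluster 5. The 14.3 (1.92 to 635) is the thinned ratio, from far fewer counts. Thinned shares in cluster 5 were close, at 4.02% of mutant and 3.79% of control cells. In shallow cluster 0 it was at 34.6 and 46.7 CPM (ratio 0.741, 0.504 to 1.07), and in cluster 4 at 136 and 126 CPM. Outer enamel epithelium-like cluster 1 and cluster 8 had 1 mutant count between them, and control cluster 1 had 10 counts (1.71 CPM).

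Acp4 was also counted outside the lineage. It was at 2.28 CPM (1.99 to 2.60) in mutant and 5.53 CPM (4.88 to 6.24) in control cells there, from 220 and 261 counts. Acp4 was thus called lower outside the lineage, where 3.42% of 16431 genes were called higher and 2.9% lower. Over 29 overlapping units with enough counts and cells (clusters and larger sums), it was called lower in 8 and higher in 0. The share of all genes called was counted for only some of these units. Those 8 include the sum of all cells, at 75.4 CPM in mutant and 175.7 CPM in control cells, which depends on the share of lineage cells. They also include pericyte or smooth muscle-like cluster 10, where 1 control cell held 18 of the 23 control counts. In endothelium-like cluster 8 Acp4 was at 1.81 and 3.08 CPM. In cluster 8, 2.21 mutant and 3.14 control Acp4 counts per 1000 Amelx counts were found, beside 1.64 and 2.76 in cluster 3, so the proportion to Amelx was near that of secretory cells. In clusters 2 and 5 the proportion was higher, at 25.6 and 11.03 in cluster 2 and at 45.5 and 37.2 in cluster 5. The part of free RNA in the low Acp4 levels outside the lineage was not tested.

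The receptor gene Relt had its highest lineage levels in clusters 6 and 3. It was at 66.5 CPM (59.5 to 74.2) in mutant and 84.8 CPM (76.1 to 94.2) in control cells of cluster 6, a ratio of 0.785 (0.672 to 0.916). In cluster 3 it was at 57.0 and 69.8 CPM, a ratio of 0.817 (0.723 to 0.924), and in cluster 7 at 39.6 and 40.2 CPM, a ratio of 0.985 (0.676 to 1.42). Over both libraries the levels of clusters 6 and 3 overlap, as do those of clusters 3 and 7. The cluster 7 ratio depended on the weight of cells: a Relt UMI was in 32.1% of mutant cells (21.9 to 43.6) and 13.9% of control cells (9.29 to 19.7), and the mean of per-cell CPM gave a ratio of 1.83. The lineage ratio of 1.21 thus goes with ratios below 1 in clusters 3 and 6.

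Fam83h, the keratin-binding member, was low in every lineage cluster. It ranged from 6.43 to 9.75 CPM over the mutant clusters and from 2.43 to 10.4 CPM over the control clusters, and neighbours in its order of levels overlapped throughout. In secretory ameloblast-like cluster 3 it was at 7.86 CPM (6.15 to 9.90) in mutant and 5.21 CPM (3.72 to 7.09) in control cells, a ratio of 1.51 (1.01 to 2.28). In cluster 7 it was at 9.46 and 10.4 CPM, a ratio of 0.913 (0.404 to 1.94) from 11 and 24 counts, and the mean of per-cell CPM gave 2.85. Outside the lineage it was at 1.05 CPM (0.851 to 1.27) in mutant and 1.29 CPM (0.988 to 1.66) in control cells, below its level in every lineage cluster of the same library.

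Fam20a, Fam20c and Relt also had sources outside the enamel organ. Of all their counts, the lineage held 73.9% in the mutant and 76.4% in the control for Fam20a, 78.7% and 82.5% for Fam20c, and 70.7% and 83.3% for Relt. For Acp4 the lineage held 97.6% and 98.1%. Fam20a was at 64.7 CPM (57.4 to 72.7) in mutant and 79.3 CPM (67.0 to 93.3) in control cells of pericyte or smooth muscle-like cluster 10, and at 46.9 CPM (38.6 to 56.6) and 61.0 CPM (53.2 to 69.6) in cluster 22, which carries osteoblast and odontoblast markers. These pericyte levels were not below the Fam20a level of ameloblast cluster 7 in the same library. In Schwann cell or glia-like cluster 26 it was at 54.8 CPM in 105 mutant cells, with 25 counts in 17 control cells.

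Fam20c was at 18.02 CPM (15.9 to 20.3) in mutant and 37.5 CPM (33.3 to 42.2) in control cells of macrophage-like cluster 4, a ratio of 0.480 (0.404 to 0.570). It was called lower there, as were 1.69% of 12305 genes, with 4.36% called higher, at median depths of 14240 and 14473 UMIs, in cells the K14 promoter does not usually reach. Acp4 was also called lower there, at 1.14 and 3.78 CPM (ratio 0.301, 0.155 to 0.570), and its part in the Fam20c value was not tested. In cluster 22 Fam20c was at 23.0 CPM (17.3 to 30.1) in mutant and 22.4 CPM (17.8 to 27.9) in control cells, a ratio of 1.03 (0.714 to 1.47). Relt was at 14.3 CPM (12.5 to 16.4) in mutant and 15.0 CPM (12.3 to 18.1) in control cells of macrophage-like cluster 4. Cluster 23, led by Jchain, Chil3 and Ccr2, had Relt at 24.96 CPM (17.7 to 34.3) and 12.1 CPM (5.23 to 23.9). This is called higher on 38 and 8 counts, with intervals that overlap. In endothelium-like cluster 8 Relt was called lower, at 1.21 CPM (0.579 to 2.22) and 3.34 CPM (1.78 to 5.71) from 10 and 13 counts. These intervals overlap as well. The share of all genes called was not counted for clusters 8 and 23.

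**Figure D5:**
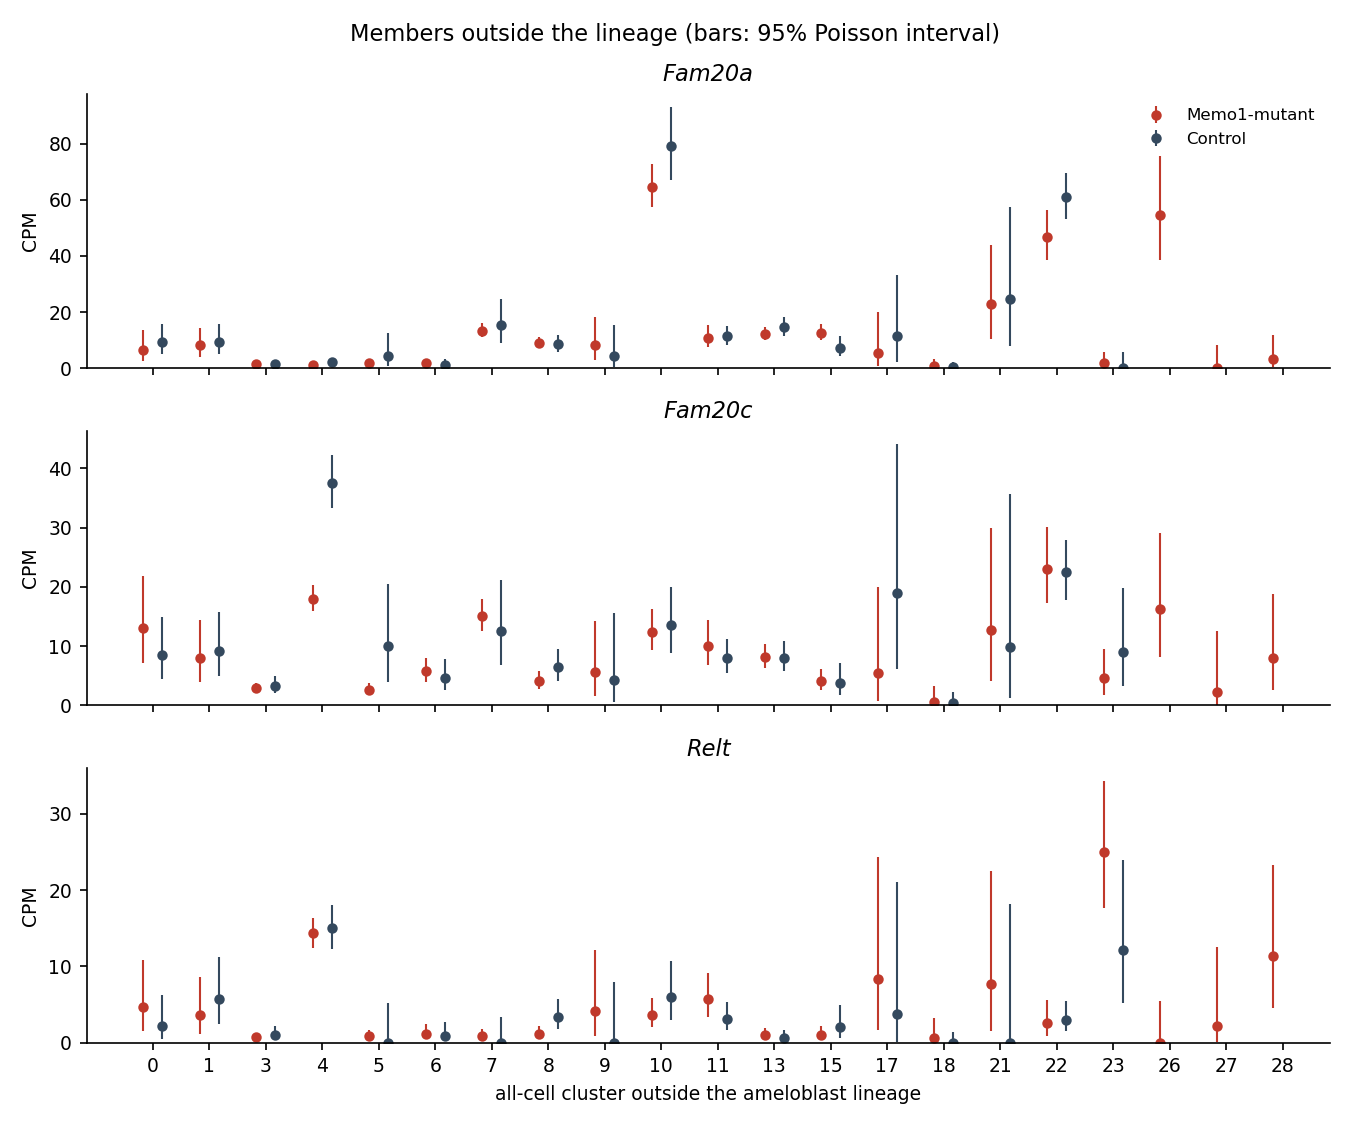
CPM of Fam20a, Fam20c and Relt in all-cell clusters outside the ameloblast lineage, in the Memo1-mutant library (red) and the control library (dark blue), for clusters with at least 50 cells in that library; bars are exact 95% Poisson intervals. Fam20a peaks in clusters 10, 22 and 26, Fam20c in control cluster 4 and Relt in clusters 4 and 23.

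Over 56 cluster and library combinations with at least 50 cells, the gene whose log2(CPM + 1) ran most like each member was named by Pearson correlation among 14663 genes, as a description of points that share 2 libraries and their depth. For Wdr72 it was Klk4 (r = 0.78), the protease that clears matrix in maturation, followed by Cryaa and Wnt10b. For Acp4 it was Calb1 (r = 0.97), a calcium-binding protein abundant in ameloblasts, followed by Papln and Sox21. Fam83h ran with the desmosome cadherin Dsg2 (r = 0.84), Crb3 and Fam187b, and Relt with the glycosyltransferases Galnt12 (r = 0.81) and Galnt6 and with Fam46a. For Fam20c the first was Ckb (r = 0.83), then Gm8906 and Htatip2, and for Fam20a Itpripl2 (r = 0.78), Plod2 and Ckb. Among the members themselves, Fam20c was most like Acp4 (r = 0.76), Relt (r = 0.75) and Fam20a (r = 0.71), and Wdr72 was unlike Fam20a (r = 0.08) and Relt (r = 0.08).

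Genes related to the members were counted from 4 lists, each read beside the share of all tested genes that was called. That share was 4.6% higher and 4.08% lower in the lineage, 5.36% and 12.3% in cluster 7, 6.5% and 2.08% in cluster 3, and 9.37% and 1.14% in cluster 6. Of 28 other enamel-defect genes with enough counts in the lineage, 0 were called higher and 4 lower (Klk4, Slc24a4, Amtn and Odaph), with a median log2 ratio of 0.06 beside -0.03 over all genes. Klk4, Slc24a4 and Amtn are among the markers that named cluster 7, which held 78 mutant and 187 control cells. The part of that mix of cells in these calls was not tested. Slc24a4, a calcium exchanger of maturation ameloblasts, was at 4.58 CPM in mutant and 34.3 CPM in control cells, and Odaph, an enamel matrix protein, had 0 and 22 counts. In cluster 7, 1 of 27 was called higher (Enam) and 11 lower, with a median of -0.75 beside -0.07. The lower ones include Slc13a5, a citrate transporter, at 18.9 and 172 CPM, and Cnnm4, a magnesium transporter, at 12.9 and 79.0 CPM. In secretory ameloblast-like cluster 3, 1 of 25 was called higher (Cftr, a chloride channel, at 18.7 and 4.30 CPM) and 3 lower (Amtn, Klk4 and Cnnm4). In cluster 6, 0 of 24 were called higher and 1 lower.

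Clathrin endocytosis and proton pump genes, the machinery WDR72 is tied to, were counted next. Of 23 such genes in the lineage, 0 were called in either direction, beside 4.6% higher and 4.08% lower of all genes, with a median log2 ratio of -0.02, and 0 of 23 in cluster 3. The cluster 7 background was 5.36% higher and 12.3% lower. In cluster 7, 1 of 22 was called lower, the pump subunit gene Atp6v1b2, at 212 CPM in mutant and 462 CPM in control cells (ratio 0.459, 0.398 to 0.528), and the median was -0.28. In cluster 6, 1 of 22 was called higher, the lysosomal membrane gene Lamp1.

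Genes for proteins that FAM20C phosphorylates were measured beside it. Of 9 in the lineage, 3 were called higher and 0 lower, beside 4.6% and 4.08% of all genes, with a median log2 ratio of 0.52. These were Spp1 at 14.03 CPM in mutant and 0.588 CPM in control cells, Ibsp at 22.5 and 2.32 CPM, and Dspp at 104.9 and 28.8 CPM, all of bone and dentin matrix. In cluster 7, 1 of 5 was called higher, Enam, at 18318 and 6673 CPM (ratio 2.75, 2.69 to 2.80), and in cluster 3, 0 of 6 were called. In cluster 6, 2 of 7 were called higher (Dspp and Igfbp3) and 1 lower (Sparcl1).

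Relatives and partners of the members were the fourth list. In the lineage 2 of 29 were called higher, where 4.6% of all genes were, Fam83d (7.72 CPM in mutant and 3.53 CPM in control cells) and Fam83f (12.7 and 5.79 CPM), both of the FAM83 family, and 1 lower, the keratin gene Krt18 (16.3 and 42.8 CPM). In cluster 7, 4 of 16 were called lower and 0 higher, where 12.3% and 5.36% of all genes were, and the 4 were Krt14 (1277 and 2870.4 CPM), a keratin whose promoter drives the Cre, Rell1 (28.4 and 95.4 CPM), a RELT relative, Pkdcc, a secretory pathway kinase gene, and Stk39. In cluster 3, 2 of 24 were called higher (Acp5 and Fam83d) and 0 lower, and in cluster 6, 5 of 27 were called higher and 0 lower.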

How the data were processed

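Droplet libraries (10x Genomics, 3′ ends) of 1 Memo1-mutant and 1 control mouse were compared. The deposited values are whole-number UMI counts per gene and cell for 19626 genes and 23528 cells, which the authors made with Cell Ranger and Seurat 3 on mm10, per the submitters' processing notes (other versions not given in the sources used here). The deposited cell metadata give the authors' cluster numbers for all cells and within the lineage, and the way lineage cells were chosen is not given in the sources used here. Cells in the file have at least 501 UMIs, 200 genes and at most 30.0% mitochondrial counts. No further cell filter was used, and doublets were not called.

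Counts were summed per cluster and library and scaled to CPM. Levels have exact Poisson, ratios exact conditional and shares Clopper-Pearson 95% intervals, which cover counting error only. PCR copies were merged by UMI. Clusters with under 50 cells in a library got no ratio. Shares used all cells without thinning unless called thinned. The thinned shares and one alternative used cells with at least 1000 UMIs, thinned to 1000 UMIs. A cluster was named from markers where at least 3 stood 1.5-fold above the other clusters and their mean log2 fold reached 1, and its leading genes did not go against the name. Acp4 was matched to Acpt through RefSeq synonyms. Named genes are the members, Memo1, the 3 genes most like each member with at least 100 counts, and up to 5 per list that lie farthest from a ratio of 1; a few list genes beyond these were named after their values were seen because their count was 5 or fewer or to complete a count. The members and lists were chosen with earlier results of these data known. Alternatives used TMM factors (edgeR 4.0.16), DESeq2 1.42.0 size factors, other totals, stricter cell limits (1000 UMIs, 500 genes, 10% mitochondrial counts) and other cell selections. Ratio intervals were run on simulated counts drawn from the same Poisson model that they assume. That run could not show whether they hold where counts are clumped in a few cells. Software was R 4.3.3 and Python 3.11.15 (scipy 1.17.1, numpy 2.4.6, matplotlib 3.10.9, pandas 2.3.3).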

Additional observations from a re-analysis of the deposited data

Results flagged for a closer look

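The ratio of mutant to control for Fam20c lay well above 1 in cluster 2 (3.59) and cluster 5 (3.30), near 1 in cluster 3 (1.09), above it in cluster 7 (1.36) and below it in cluster 6 (0.809). For Acp4 it lay above 1 in cluster 2 (1.74) and cluster 5 (1.43), and below 1 in cluster 3 (0.580), cluster 6 (0.596) and cluster 7 (0.615). For Fam20a it lay above 1 in cluster 3 (1.24) and cluster 7 (1.70), and below 1 in cluster 6 (0.729), though thinned to 1000 UMIs the cluster 6 ratio was 1.10 from 15 mutant and 12 control counts. Without thinning, each of these genes had counting intervals on opposite sides of 1 in different clusters of the same 2 libraries. With 1 library per group the difference between clusters was not tested, and their cause was not tested.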

How the results depend on the processing

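Of the recomputed values for the lineage and clusters 3 and 7, 141 stayed within the counting interval (for counts of genes, within 1.5-fold) and 39 moved. Lineage ratios of mutant to control with totals that leave out abundant transcripts were 1.81 for Fam20a, 1.55 for Fam20c and 0.927 for Acp4, and with stricter cell limits 1.57, 1.34 and 0.806. Thinned to 1000 UMIs they were 1.84 for Fam20a, 1.23 for Fam20c, 2.60 for Fam83h and 0.898 for Acp4, and as means of per-cell CPM 1.56 for Fam20a, 1.78 for Fam83h, 0.921 for Acp4 and 1.07 for Relt. Dropping the deepest 5% of cells gave 1.62 for Fam20c and 1.01 for Acp4. In cluster 3, TMM and DESeq2 factors gave 1.13 and 1.13 for Fam20a, 0.990 and 0.986 for Fam20c, and 0.528 and 0.526 for Acp4, and totals without abundant transcripts 0.552 for Acp4. Thinning gave 1.15 for Fam20a, 0.874 for Fam20c, 0.546 for Acp4 and 0.693 for Relt. In cluster 7, thinning gave 0.114 for Wdr72 and 0.760 for Acp4. Means of per-cell CPM there gave 1.89 for Fam20c, 2.85 for Fam83h, 0.715 for Acp4 and 1.83 for Relt, totals without abundant transcripts 0.689 for Acp4, and dropping the deepest 5% of cells 1.67 for Fam20c and 1.60 for Relt. Without a filter on low counts, genes past 2-fold numbered 3810 in the lineage, 4107 in cluster 3 and 4946 in cluster 7, against 1217, 893 and 1413. Wdr72 stayed between 0.0384 and 0.0668 in the lineage over 11 alternatives. With log2(CPM + 10), the gene most like it was Cryaa and that most like Fam20c was Gal3st4. Leaving out cells with shared barcodes or the mutant cell with the most Odam was chosen after seeing the data. No paired analysis was possible because each group has 1 library. The cause of these moves was not tested. Few counts per cluster limit what can be seen for Wdr72 and Fam83h.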
